A study of Mus musculus with 4 samples.

Results

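Myc and Pim1 encode growth and survival factors whose mRNAs are made in response to interleukin-3 and last only a short time. Their NAT10 binding sites were taken as all rows of the deposited eCLIP peak list whose gene was Myc or Pim1, which gave 15 of 4172 distinct peaks, 2 on Myc and 13 on Pim1. NAT10 is the acetyltransferase that writes N4-acetylcytidine on RNA, and eCLIP sequences the RNA fragments that UV light has fixed to a protein and an antibody has pulled down. The libraries were 2 NAT10 immunoprecipitates and 2 inputs without antibody. All came from wild-type 32D cells, a mouse line kept alive by interleukin-3, here 10 ng/mL with 10% fetal bovine serum. All cells were crosslinked at 254 nm and 150 mJ. The study sought mRNA sites that NAT10 contacts directly. The authors combined the libraries in 1 list, so each peak has 1 log2 fold of immunoprecipitate over input and 1 -log10 p, no value per library and no error; the differences below are between listed values and were not tested. The labels do not tell whether replicate libraries stem from different cultures, and the cells are a single line.

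As background, MYC is a transcription factor that pairs with MAX and raises the output of genes for ribosomes, metabolism and division. PIM1 is a serine-threonine kinase that is active as soon as it is translated, so its activity follows the amount of its mRNA and protein. Interleukin-3 binds a receptor whose shared beta chain recruits JAK2, and the STAT5 that JAK2 activates switches on Pim1. PIM1 protects cells from death, in part by phosphorylating BAD, and it can stabilise MYC, with which it cooperates in lymphoma. Both mRNAs carry AU-rich elements in their 3' UTRs that mark them for rapid decay.

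In the whole list the log2 fold started at 3.00 and had a median of 4.60. The -log10 p ran from 3.07 to a ceiling of 400 with a median of 5.68. Binding below these bounds is not listed, so a missing peak does not show that an mRNA was free of NAT10. The median peak was 79 nt wide, the median gene symbol had 2 peaks, and 1626 symbols had at least 1. The labels call the cells bone marrow lymphoblastocytes. Of 16 genes that mark this interleukin-3-dependent myeloid line, 5 had a peak (Csf2rb, Ptprc, Prtn3, Gata2 and Myb), and of 12 markers of lymphoid, erythroid, liver, nerve and fibroblast cells none had. Of 21896 protein-coding genes 7.33% had a peak, so a count of 0 among 12 is near that share and says little about the cells. The granule protease gene Elane, the peroxidase gene Mpo and Kit were among the 11 line markers without a peak.

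Myc had 1 peak in the authors' 5' UTR class, 1 in their 3' UTR class and none in their exon class. These classes were taken as deposited, and the place of peaks relative to start and stop codons was not checked. The stronger peak lay in the 5' UTR on the plus strand of chr15:61859286-61859412 (GRCm39) and was 127 nt wide. Its log2 fold was 6.19, which is 72.9-fold over input, and its -log10 p was 16.4. The second peak lay in the 3' UTR at chr15:61862007-61862034 and was 28 nt wide. It was 22.6-fold over input (log2 fold 4.50), at a -log10 p of 4.53. The 5' UTR peak thus exceeded the 3' UTR peak by 1.69 on the log2 scale, or 3.23 times, and 2594 nt of the genome lay between them. Of the bases under Myc peaks 81.9% were in the 5' UTR.

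These values put the Myc 5' UTR peak among the strong ones of its class and the 3' UTR peak near the middle. By fold the 5' UTR peak was number 14 of 237 peaks in 5' UTRs, whose median was 4.50. It was also broad, since 84.0% of 5' UTR peaks were narrower than it and their median width was 68 nt. By fold the 3' UTR peak was number 1375 of 2403 peaks in 3' UTRs, whose median was 4.64. Only 5.87% of 3' UTR peaks were narrower than its 28 nt. By its strongest peak Myc stood above 88.7% of gene symbols, and among the 352 symbols with exactly 2 peaks it was number 31, where the median strongest peak was 4.73.

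Pim1 carried 13 peaks, all on the plus strand of chromosome 17 between positions 29712688 and 29715000 (GRCm39). Like Myc it had peaks of the deposited 5' UTR class (2 peaks) and 3' UTR class (11 peaks) and none of the exon class. Joining peaks that touch left 4 separate regions, which covered 589 nt. Only 20 symbols had more peaks, and 41 of 1626 had 10 or more. The nearest peak of another gene was 109693 nt away on this chromosome, in Tbc1d22b.

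In the 5' UTR the 2 Pim1 peaks touched and formed 1 region of 115 nt at chr17:29712688-29712802. The first, of 56 nt, stood at 5.04 in log2 fold and 19.0 in -log10 p. The second, of 59 nt, stood at 5.55 and 20.5. Both folds were above the median of 5' UTR peaks, as numbers 60 and 30 of 237. The stronger of them stood 0.64 below the Myc 5' UTR peak on the log2 scale, while both had a higher -log10 p than the Myc peak.

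**Figure D1:**
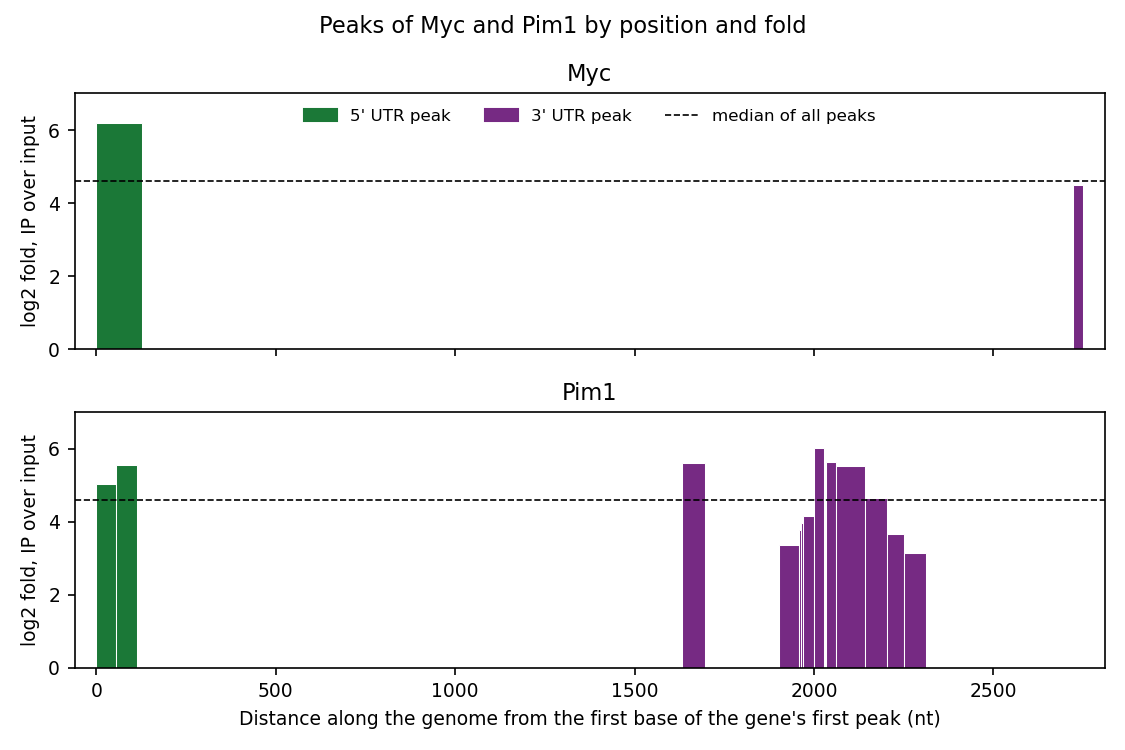
The log2 fold of immunoprecipitate over input (vertical axis) is drawn for each peak of Myc (upper panel) and Pim1 (lower panel) against its distance in nt from the first base of that gene's first peak, with block width equal to peak width. Myc has a high 5' UTR peak (6.19) and a narrow 3' UTR peak (4.50), while Pim1 has 2 touching 5' UTR peaks and a graded 3' UTR cluster; the dashed line is the median of all peaks, 4.60.

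The Pim1 3' UTR held 1 peak that stood alone and then a near-continuous bound stretch. The lone peak, at chr17:29714319-29714384 and 1516 nt downstream of the last 5' UTR peak in the genome, reached 5.60 in log2 fold, with -log10 p at 20.0. After a gap of 205 nt, 10 peaks covered 408 of the 411 nt from 29714590 to 29715000. The only break was 3 nt long. When peaks less than 50 nt apart were joined, this stretch was number 18 in length and number 6 in peaks among 3112 regions of the list.

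Along that stretch the fold climbed step by step to 1 summit and then declined step by step. Toward the summit the log2 folds were 3.35, 3.77, 3.97 and 4.16, each peak higher than the one before. The summit was the peak at chr17:29714687-29714716, with 6.02 (65.1-fold). The jump into it was 1.87, the steepest step of the rise. Fold is relative to input, and how far input reads shaped this profile was not tested. Beyond it came 5.62, 5.51, 4.64, 3.65 and 3.14, each lower than the one before. The summit exceeded the upstream end of the stretch by 2.67 and the downstream end by 2.89. The weakest Pim1 peak, 3.14, was number 2385 of 2403 among 3' UTR peaks, just above the lowest fold in the list, and the summit was number 342. The Pim1 summit exceeded the Myc 3' UTR peak by 1.53, and the strongest peaks of the 2 genes, each in a different UTR, lay 0.16 apart.

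The p-values did not follow the fold. The highest stood upstream of the fold summit, where the -log10 p was 87.9 at the first peak of the stretch, 400 at the second, 52.9 at the third and 56.2 at the fourth. At the fold summit it was 28.9, and from there on it was 31.6, 28.5, 23.7, 16.6 and 15.9. The peak at the ceiling, chr17:29714645-29714652, was only 8 nt wide and had a log2 fold of 3.77, higher than 9.95% of all peaks, and it ended 34 nt before the summit began. The third peak, of 4 nt, was among the narrowest of its class, with 0.0416% of 3' UTR peaks narrower.

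**Figure D2:**
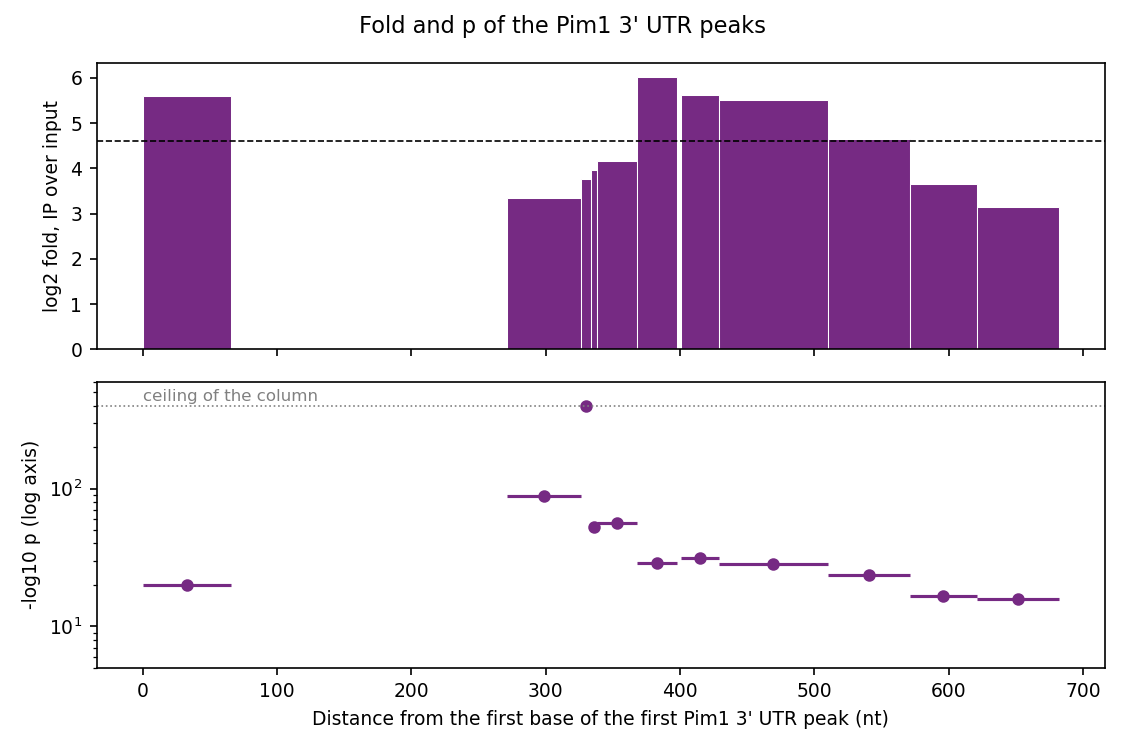
The 11 Pim1 3' UTR peaks are drawn by distance in nt from the first base of the first of them; the upper panel gives the log2 fold over input as blocks of the peak's width, with the median of all peaks dashed, and the lower panel the -log10 p on a log axis, with lines for peak width and dots at peak centres. Fold is highest at the eighth Pim1 peak (6.02), whereas -log10 p is highest at an upstream peak that stands at the ceiling of 400.

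Across the 13 Pim1 peaks fold and -log10 p had a Spearman rho of -0.02, against 0.73 across all 4172 peaks. In other mRNAs with many 3' UTR peaks rho was 1.00 for the 11 peaks of Mdm2, 0.40 for the 20 of Cdk6 and 0.67 for the 22 of Mdm4. Of the Mdm4 peaks 17 were in the 3' UTR and 5 in the exon class. Mdm2 and Mdm4 encode restrainers of p53 and Cdk6 a kinase of the G1 phase. Among the 41 genes with 10 or more peaks rho ran from -0.37 to 1.00 with a median of 0.70, and Pim1 was number 5 from the lowest. These are descriptions of peaks that share an mRNA and libraries and often touch.

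Peaks with a low fold and a very small p were rare in the list. A -log10 p above 50 was found at 194 peaks, and 15 of these (7.73%) had a fold below the median of the list. Pim1 held 4 of the 15. The others were 4 of Actb, which encodes beta-actin, 2 each of the importin gene Kpna4, Ywhaz and mt-Nd5, and 1 of Cep295. The bound of 50 was chosen after the values were seen, and these genes were named for the same reason. The ceiling of 400 was reached by 34 peaks on 8 genes, of which 6 are nuclear: Actb, Bin2, Cat, Eif4g2, Kpna4 and Pim1.

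The -log10 p of Pim1 was high for its fold at every peak, that of Myc was not. All 13 Pim1 values, from 15.9 to 400 with a median of 28.5, were above the median of the list, while 7 of its 13 folds were. Each Pim1 peak was set beside the list's peaks within 0.1 of its log2 fold. From 89.7% to 99.6% of those peaks had a lower -log10 p. At the summit Pim1 had 28.9, against a median of 14.1 for peaks of like fold. At the fourth peak of the stretch, with a fold of 4.16, Pim1 had 56.2, against a median of 3.34. The Myc 5' UTR peak, at 16.4, was close to the median of 15.9 among peaks of like fold, with 65.1% of them lower. The Myc 3' UTR peak, at 4.53, was close to a median of 4.50, with 58.8% lower.

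**Figure D3:**
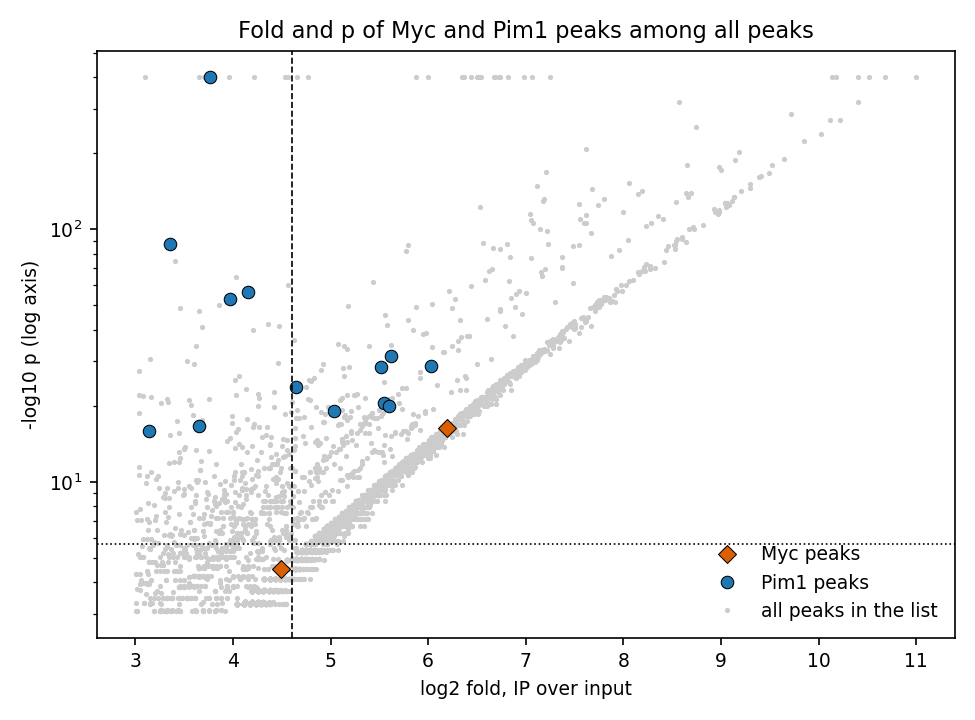
Each grey point is a peak of the list, with log2 fold over input on the horizontal axis and -log10 p on a log vertical axis; Myc peaks are orange diamonds, Pim1 peaks blue circles, and the lines mark the medians of all peaks (4.60 and 5.68). The 2 Myc peaks lie in the dense band of the list, while the 13 Pim1 peaks lie above it, 4 of them with -log10 p over 50 at folds under the median.

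The steps in the fold column also differed between the 2 mRNAs. For 82.7% of peaks the square of the linear fold was a whole multiple, within 0.02, of 1 common step of 3.03. A mean of 2 log2 read ratios takes such values when each input library has 1 read. It also does so when larger input counts happen to divide evenly, so a whole multiple does not fix the input count. Both Myc peaks took such values, with multiples of 1755 and 168, so each may have had a single read per input library. Of the 13 Pim1 peaks only 3 did: the lone 3' UTR peak (775), the summit (1400) and the second peak beyond it (688). By the same reading these 3 may have had a single read per input library, which the folds alone do not settle. The other 10 Pim1 folds, those of the 5' UTR and of both flanks of the stretch among them, were not whole multiples. The share of whole multiples was 23.1% in Pim1, level with Actb, against a median of 77.8% and a range of 13.3% to 100% among the 41 genes with 10 or more peaks. Read counts were not used here, so this is read from the folds alone.

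Peaks of both deposited UTR classes in 1 gene were uncommon among all 1626 symbols, of which only 151 had any 5' UTR peak. In all 58 symbols (3.57%) had a peak in the 5' UTR and one in the 3' UTR, and 26 of them (1.60%), Myc and Pim1 included, had none in the exon class. In 23 of the 58 the strongest 5' UTR peak was above the strongest 3' UTR peak, and the median difference was -0.26. Myc, with 1.69, was number 4 of the 58 by this difference. Pim1, with -0.47, was number 33. By the fold of its 5' UTR peak Myc was number 7 of the 58 and Pim1 number 12.

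**Figure D4:**
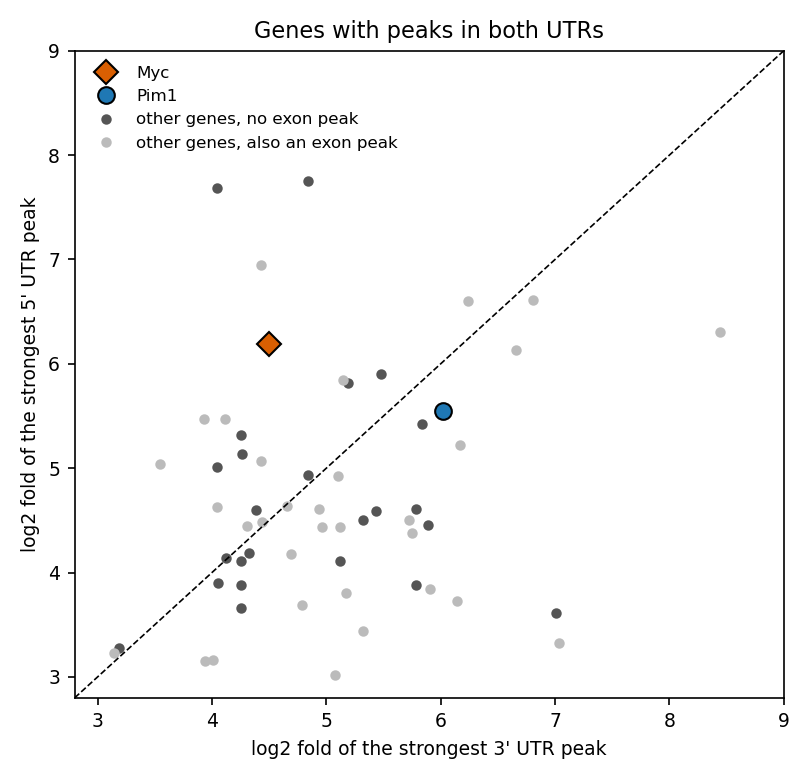
Each point is 1 of the 58 genes with peaks in both UTRs, with the log2 fold of its strongest 3' UTR peak on the horizontal axis and of its strongest 5' UTR peak on the vertical axis; the dashed line marks equal values and the shade tells whether the gene also had an exon peak. Myc lies above the line by 1.69 and Pim1 below it by 0.47.

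The genes most like each of them were sought among those with peaks in the 2 UTRs and no other class. Likeness was the sum of the absolute log2 ratio of peak counts and the absolute difference in strongest log2 fold, taken to each of the others among the 26 genes. For Myc the closest was Srek1 (distance 0.29), a splicing regulator gene with 5.90 in its 5' UTR and 5.48 in its 3' UTR. Next were Zfp280c (0.87), with 5.32 and 4.25, and Vegfa (1.26), the angiogenic growth factor gene, with 4.93 and 4.84. In each of these 3 genes, as in Myc, the 5' UTR peak had the higher fold of its 2 peaks, in Vegfa by only 0.09. The strongest 5' UTR peak was the higher in 23 of all 58 genes with peaks in both UTRs. For Pim1 the closest was Runx3 (0.84), a transcription factor gene with 1 peak in the 5' UTR and 7 in the 3' UTR, the highest at 5.89. Then came Cdkn1a (0.89), which encodes the cell cycle inhibitor p21, with 4 peaks in each UTR, the highest at 5.83, and BC005537 (1.58), with 4 peaks in the 5' UTR and 1 in the 3' UTR. The highest -log10 p was 400 in Pim1, against 17.0 in these 3 genes (in Cdkn1a). Pim1 had 13 peaks in 4 regions, against 8 in 6 for Runx3, 8 in 7 for Cdkn1a and 5 in 3 for BC005537. By peaks per region Pim1 was number 6 of the 41 genes with 10 or more peaks.

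Among close relatives only Mycn had a peak. Mycn, the neural relative of Myc, had 1 peak of 196 nt in its 3' UTR at chr12:12986108-12986303 at 5.75 in log2 fold and 12.1 in -log10 p. The Myc 3' UTR peak, at 4.50, was lower than that. No peak was listed for Mycl, for Max, the partner of MYC, or for the sister kinases Pim2 and Pim3. Levels of these mRNAs in 32D cells were not used here, so absence of a peak and absence of the mRNA cannot be told apart.

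The circuit around both genes was described with 7 lists, read against the 7.33% of 21896 protein-coding genes that had a peak. Of 32 early response genes of interleukin-3, 9 had a peak (28.1%), and 7 of 30 did without Myc and Pim1 (23.3%). A peak with a fold above the median of the list was found for 6 of the 32, against 3.96% of all protein-coding genes, and 2 or more separate regions for 6, against 3.41%; both Myc and Pim1 are among these 6 each time. After those 2 the strongest were the survival genes Bcl2l1, with 5.46 in its 5' UTR, and Mcl1, with 7 peaks up to 5.38 in its 3' UTR. Ccnd2, a cyclin that drives the G1 phase, had 6 peaks up to 5.05, all in the 3' UTR. Cish, Socs1, Socs2 and Socs3, which encode feedback inhibitors of the receptor, were among the members without a peak. They were picked out after the values were seen. With 7.33% of all protein-coding genes bound, the lack of a peak in so few genes says little. Of the 9 bound genes 7 had a peak in the 3' UTR and 4 in the 5' UTR, and without Myc and Pim1 5 and 2 of 7 did. Over all 1605 bound protein-coding genes 1139 had a peak in the 3' UTR and 147 in the 5' UTR. The median strongest peak of the 9 was 5.05, against 4.69 over all bound protein-coding genes.

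Upstream of Myc and Pim1, 3 of 17 genes of the receptor, JAK and STAT had a peak (17.6%). These were the kinase gene Jak1 (5.75, 5' UTR), the receptor beta chain gene Csf2rb (3 peaks in the 3' UTR) and the Src-family kinase gene Lyn (4.11, 3' UTR). Jak2, Stat5a and Stat5b, named here after the values were seen, had none. The exact 95% binomial interval of the 17.6%, from 3.80% to 43.4%, holds the 7.33% of all genes. In the Myc network 3 of 20 genes had a peak (15%), and 2 of 19 without Myc (10.5%), which is near the 7.33% of all genes. They were Myc itself, Mycn and Mxd4 (4.50, 3' UTR), which encodes a MAX partner that opposes MYC. Factors that govern MYC protein turnover had 4 of 12 (33.3%): Gsk3b (6.58, 3' UTR), the kinase that marks MYC for degradation, the ubiquitin ligase genes Huwe1 (5.01, 3' UTR) and Fbxw7 (4.38, exon), and the repressor gene Sin3b (3.55, 3' UTR).

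In the list of PIM kinases and their substrates 10 of 22 genes had a peak (45.5%, and 9 of 21 without Pim1). This list also holds the chaperone genes Hsp90aa1 and Hsp90ab1, both with a peak, whose place downstream of PIM kinases was not checked. The strongest were Mdm2 (10.41, 3' UTR), Cbx3 (6.31, 3' UTR), which encodes a heterochromatin protein, Pim1 itself, the chaperone gene Hsp90aa1 (6.00) and Cdkn1a (5.83, 3' UTR). Bad, the death-promoting substrate, had no peak and was picked out after the values were seen. Among 40 short-lived regulatory mRNAs 13 had a peak (32.5%, and 11 of 38 without Myc and Pim1). Mdm2 led, then Zfp36l1 (6.27, 3' UTR), whose protein binds AU-rich elements, and Cited2 (6.24), a transcriptional co-regulator gene, with Myc and Pim1 as numbers 4 and 5. Of these 13 genes 12 had a 3' UTR peak and 4 a 5' UTR peak, and without Myc and Pim1 10 and 2 of 11 did, against 1139 and 147 of 1605 bound protein-coding genes.

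Proteins that bind or degrade the Myc or Pim1 mRNA had the highest share, 13 of 21 (61.9%). Among the strongest were Zfp36l1 (6.27), the deadenylase scaffold gene Cnot1 (6.07), Hnrnpk (5.91) and Khsrp (5.79), which encodes a decay factor for AU-rich mRNAs. All 13 had a peak in the 3' UTR, against 1139 of the 1605 bound protein-coding genes. The lists overlap and hold mRNAs that may be abundant, and the background was not limited to genes transcribed in 32D cells, so what part abundance plays was not tested.

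**Figure D5:**
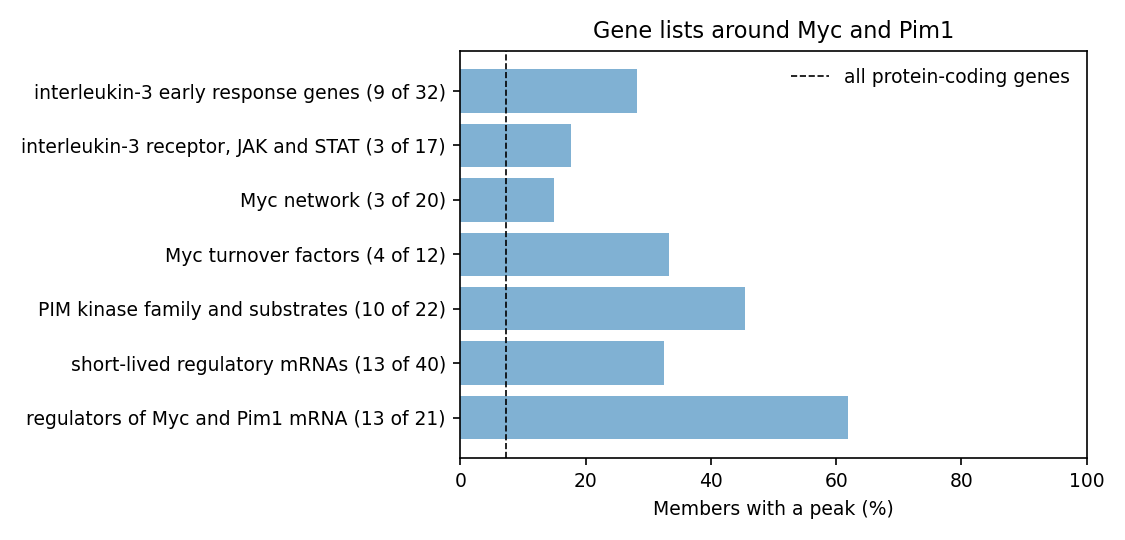
Bars give the percentage of members with a peak for each of 7 gene lists, with members bound and total in brackets; the dashed line is the 7.33% of all protein-coding genes. The Myc network (15%) is closest to the line and the regulators of both mRNAs (61.9%) are farthest from it.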

How the data were processed

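Measured were 2 NAT10 eCLIP and 2 input libraries of 32D cells. The authors deposited 1 peak list; columns for p and fold are named per the file headers. Their deposited values were taken as -log10 p (all exceed 3) and as log2 fold over input (they step like log2 ratios of read counts). The genome build is GRCm39 per the submitters' processing notes; the sources used here do not name an aligner, peak caller, cut-off, p adjustment or way of joining replicates. Library depth is unknown.

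Rows were read with pandas 2.3.3 in Python 3.11.15. Peaks listed under 2 genes were counted once in peak counts. Peaks of 1 gene and strand were joined when touching or, as an alternative, when less than 50 nt apart. Joining and step finding were tested on simulated data. The read step was searched between 2 and 5, with a tolerance of 0.02 for whole multiples. Symbols were matched to RefSeq names of GRCm38.p6 (1609 of 1626), used for no coordinate. No test was run, since a peak has no replicate values. No sequence is printed, since a genome of this build was not used here.

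The members and lists were chosen with earlier results of these data known. Named were all Myc and Pim1 peaks, up to 5 bound members of each list by fold, the 3 genes most alike to each, the relatives Mycn, Mycl, Max, Pim2 and Pim3, and Cdk6, Mdm2 and Mdm4 for comparison; exceptions are marked. Of the genes in this rule, 1 is not reported here.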

Additional observations from a re-analysis of the deposited data

How the results depend on the processing

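The counts depend on what is called a peak. Joining touching peaks left 4 Pim1 regions and joining those less than 50 nt apart left 3, against 13 listed peaks, while Myc had 2 either way. Peaks with a fold above the median of the list numbered 7 for Pim1 and 1 for Myc, and those with a -log10 p above its median 13 and 1. By -log10 p instead of fold Pim1 stood above 99.5% of symbols and Myc above 86.4%. By the median peak Pim1 stood above 62.8%, against 86.5% by its strongest, and by peaks not at a whole read step, an alternative chosen after seeing the data, above 89.5%. Among symbols with a 5' UTR peak Myc stood above 92.7%. Asking for a fold above the median left 2 Myc turnover factors and 8 short-lived mRNAs. Asking for 2 or more separate regions left 1 gene each of the receptor list, the Myc network and the turnover factors, and 7 short-lived mRNAs. The backgrounds for these were 3.96% and 3.41%. Stricter criteria and joining can only lower a count; the cause of the other shifts was not tested. The other list counts stayed within 1.5 times the main count, and leaving out mitochondrial peaks or counting bases gave values inside the exact 95% binomial interval of the main value. That interval treats peaks as independent, though those of 1 gene share an mRNA and often touch, so it serves only as a yardstick. It is wide for the 2 peaks of Myc, whose 3' UTR held 50% of peaks and 18.1% of bases. No paired analysis was possible because the list holds no value per library, and for the same reason no replicate could be left out.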
